A study of Mus musculus with 4 samples.

Results

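Autophagy and mitophagy genes were read in Treg cells of mouse spleen, the regulatory CD4 T cells that carry Foxp3 and hold other immune cells in check. The group was a list of 42 genes chosen by name, from the kinase that starts autophagy to the receptors that deliver mitochondria and the factors that control the lysosome. The array's annotation gave at least 1 probe set of their own to 40 of the 42, out of 18193 genes named on the array, and 39 passed a filter on dim probe sets. Optn was not analysed here, Bnip3l was not read because its 3 probe sets are also assigned to a pseudogene, and Atg4c lay under the filter.

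The study hybridised 4 arrays, 2 titled wild-type and 2 titled Foxo1/3-deficient, all from CD4+Foxp3+ cells of strain C57BL/6. The titles number 2 pairs, each with 1 array of either genotype. Titles and design name both genes as lost, whereas the genotype label lists only Foxo1, and the titles were followed. Treatment, age, how the genes were deleted, and whether an array held 1 animal or a pool were not stated in the labels, so p-values measure only the spread between these arrays.

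Autophagy wraps cytoplasm in a double membrane and hands it to the lysosome. The ULK1 kinase complex starts the process, the class III PI3 kinase complex marks the membrane with its lipid, and enzymes that resemble the ubiquitin cascade attach ATG8 proteins (LC3 and GABARAP) to that membrane. Receptors such as p62 then tie cargo to the ATG8 proteins, and mitophagy is the branch whose receptors sit on mitochondria. Foxo factors are known activators of several of these genes in muscle and other tissues, and Treg cells need autophagy to persist.

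The targeted gene was checked first. Foxo1 read 2383 and 1254 on wild-type arrays 1 and 2 and 6949 and 6697 on their labelled-deficient partners, so its transcript signal went against the label on both arrays. Foxo3 read 1876 and 2635 against 1424 and 1308, which was lower in both pairs, and its second probe set read 861 and 1001 against 554 and 521. The labels do not say where these probe sets lie relative to the deleted parts. Every direction below is that of the arrays as labelled, and since both labelled-deficient arrays carry the conflict, no value can be given without them. Wild-type, too, means the title: were the titles of the genotypes exchanged, every direction below would turn, and the files do not settle which holds.

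The deposited values were MAS5 signals, brightness on a linear scale, and all 4 arrays had a 2% trimmed mean of 500.003. Foxp3 read between 6056 and 6540 on the 4 arrays. The 7 T and Treg cell markers summed to 45709 and 50975 wild-type against 46175 and 48497 labelled-deficient. Markers of other spleen cells were present and some moved with the label. The 8 macrophage and monocyte markers measured, of 9 listed, summed to 8292 and 5658 on wild-type arrays, compared with 12374 and 9109 on labelled-deficient arrays. Csf1r held the largest part of these sums, and Lyz2, at 942 and 611 against 772 and 613, did not follow them. The sum of the 8 neutrophil markers went the other way, at 1110 and 472 against 505 and 220, with S100a9 under 29 on every array. Much of that gap was Mpo in pair 1, at 495 against 44.8, and Ltf in pair 2, at 102 against 3.41. In pair 1 S100a9, Ltf and Csf3r were higher on the labelled-deficient array, while the others were lower. None of the macrophage or neutrophil markers passed the test. The 4 natural killer cell markers measured of 6 summed to 6279 and 7667 against 1328 and 1503, mostly through Gzma, while Ncr1 and Klra8 stayed under 38 on every array. Gzma alone of them passed (limma adjusted p = 0.00158). Tyrobp did not follow the sum in pair 2, at 1277 and 396 on wild-type arrays against 1021 and 1295. The 5 B cell markers measured of 6 summed to 2585 and 829 against 2869 and 1847. All 5 were higher on the labelled-deficient array in pair 2. In pair 1 Ms4a1, at 1081 against 1611, and Pax5 were higher, while Cd79a, Cd79b and Blnk were lower. The 5 erythroid markers measured of 9 summed to between 2412 and 2897, mostly through Tfrc. Alas2, at 32.4 and 82.9 against 180 and 101, was higher in both pairs, whereas Hba-a1 and Slc4a1 were lower in pair 2. Cd8a and Cd8b1 together read between 367 and 663. The 3′ to 5′ ratio of Gapdh, a sign of RNA integrity, was 4.34 and 2.66 on wild-type arrays against 3.30 and 3.63 on labelled-deficient ones. The part these played in the results below was not tested, and in such bulk RNA fewer cells of a type and less RNA per cell cannot be told apart.

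The comparison asked which autophagy transcripts differ with the Foxo1/3 label of the Treg cells. One of the 39 members tested fell and 0 rose (limma, Benjamini-Hochberg adjusted p under 0.05 over 12111 genes), beside 1.37% of all genes lower and 1.23% higher. The gene that fell was Atg7, the E1-like enzyme that activates both ubiquitin-like proteins of the pathway. At an unadjusted p under 0.05, 3 members were higher and 1 lower, where 5.98% and 7.04% of all genes were. In the fit that took the pair as a block, 4 members were higher and 1 lower, beside 5.54% and 6.66% of all genes. The 4 were Rb1cc1, Wipi2, Sqstm1 and Pink1, and each is described with its role below. Over both directions that was 2.56% of the members against 2.60% of all genes, and 12.8% against 12.2% in the blocked fit, so neither count stands away from the background.

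Most members differed little between the labels. Differences, fitted on the log2(signal + 17) scale, had a median of 0.03 over the 39 members against -0.003 over all genes, and the members' median turned to -0.007 under quantile normalization and to -0.016 without labelled-deficient replicate 1. Their median absolute difference was 0.17, against 0.24 over all genes, and 35 of the 39 lay within 1.5-fold, or 89.7%, beside 81.5% of all genes. The median mean signal was 757 for the members and 591 for all genes, and its part in that difference was not tested. The 2 groups did not overlap for 13 members, or 33.3%, beside 41.1% of all genes. The sign of the difference was the same in both pairs for 24 members, or 61.5%, beside 62.6% of all genes. For 25 members the 95% interval of the difference stayed within 2-fold in either direction, as it did for 53.2% of all genes. For 5 it stayed within 1.5-fold, and the 14 that reach 2-fold are not resolved at that size. An exact permutation test of 2 arrays against 2 cannot give a two-sided p under 0.333. Every smaller p rests on the model of limma, which joins each gene's own variance with that shared across genes.

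**Figure D1:**
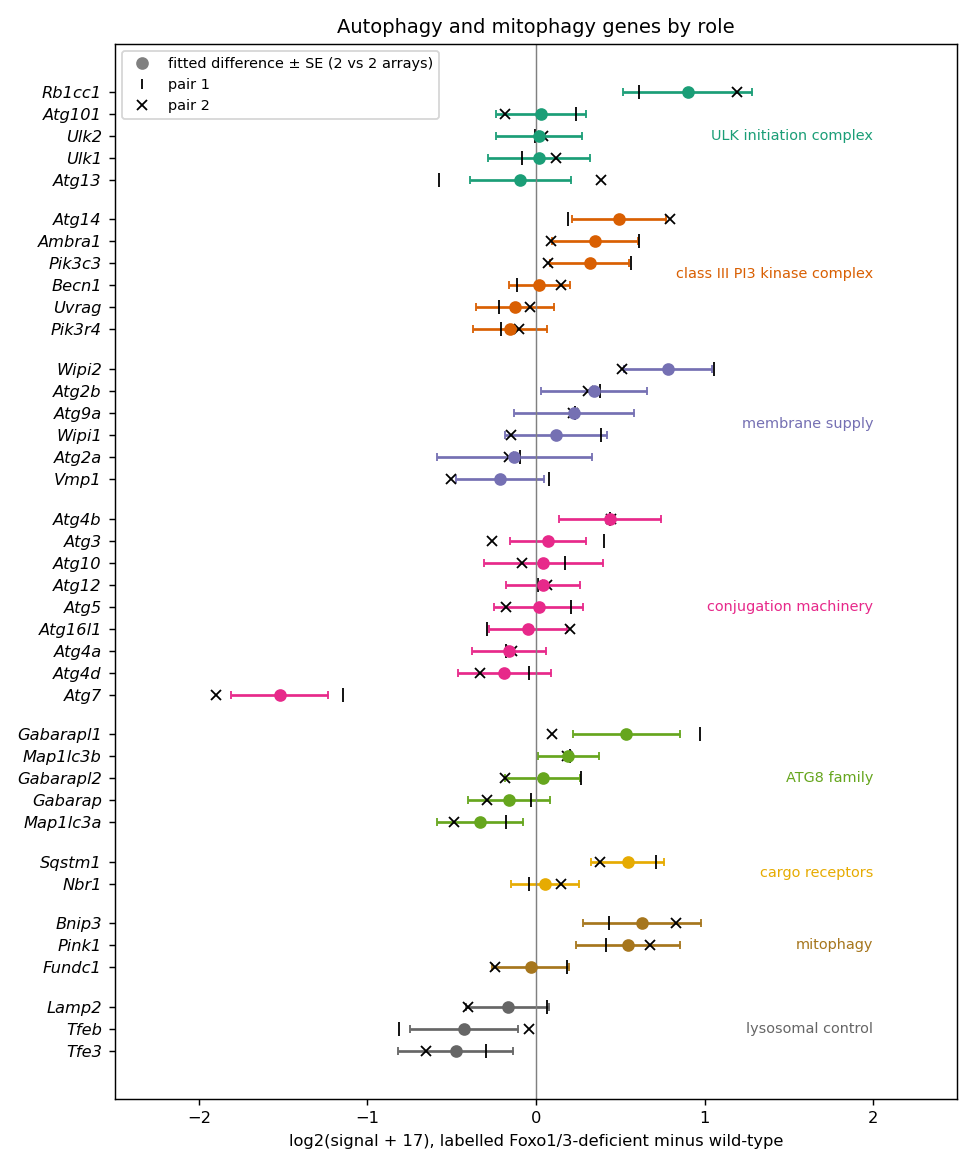
Fitted log2 difference of each of the 39 members tested (circles, with SE), grouped by role, and the difference within pair 1 (bars) and pair 2 (crosses). Atg7 stands alone at -1.52 on the left, and 35 members lie within 1.5-fold.

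Of the conjugation machinery, 9 of 10 genes were tested and Atg7 was the member that fell. Atg7 read 679 and 915 on wild-type arrays 1 and 2 and 298 and 233 on their labelled-deficient partners. Both labelled-deficient arrays lay below both wild-type arrays, and the gap between the groups exceeded the spread within either. The means were 797 ± 167 (SD, n = 2) and 265 ± 45.4, which is 2.87-fold lower, or -1.52 ± 0.29 (SE) in log2 (limma adjusted p = 0.0410). Only 1.16% of the 12111 genes stood as low or lower. With the pair as a block the limma adjusted p was 0.000134. The call rested on few arrays: without wild-type replicate 1 the adjusted p was 0.0128, but it was 0.0826 without wild-type replicate 2, 0.0760 without labelled-deficient replicate 1 and 0.149 without labelled-deficient replicate 2, at differences between -1.73 and -1.31. It was also missed on the first-listed probe set (0.122 at -2.20), and without the filter (0.102), without the intensity trend (0.0795) and when every probe set was tested (0.0530), at the same difference.

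The array carries 4 Atg7 probe sets, and every one was lower on the labelled-deficient array of both pairs. The second in brightness read 349 and 419 against 27.5 and 153, a log2 difference of -2.20 ± 0.57 whose adjusted p over all probe sets was 0.128 (limma), or 0.00316 with the block. The third read 208 and 241 against 89.8 and 105, at -1.07 ± 0.32 (limma adjusted p = 0.184, 0.0617 with the block). The dimmest, under the filter, read 77.7 and 59.1 against 31.4 and 13.7. The probe sets are not independent, since they read the same RNA. The summed neutrophil markers were lower and the summed macrophage markers higher on the same arrays, though not every marker followed its sum, as given above. Their part in the Atg7 difference was not tested.

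**Figure D2:**
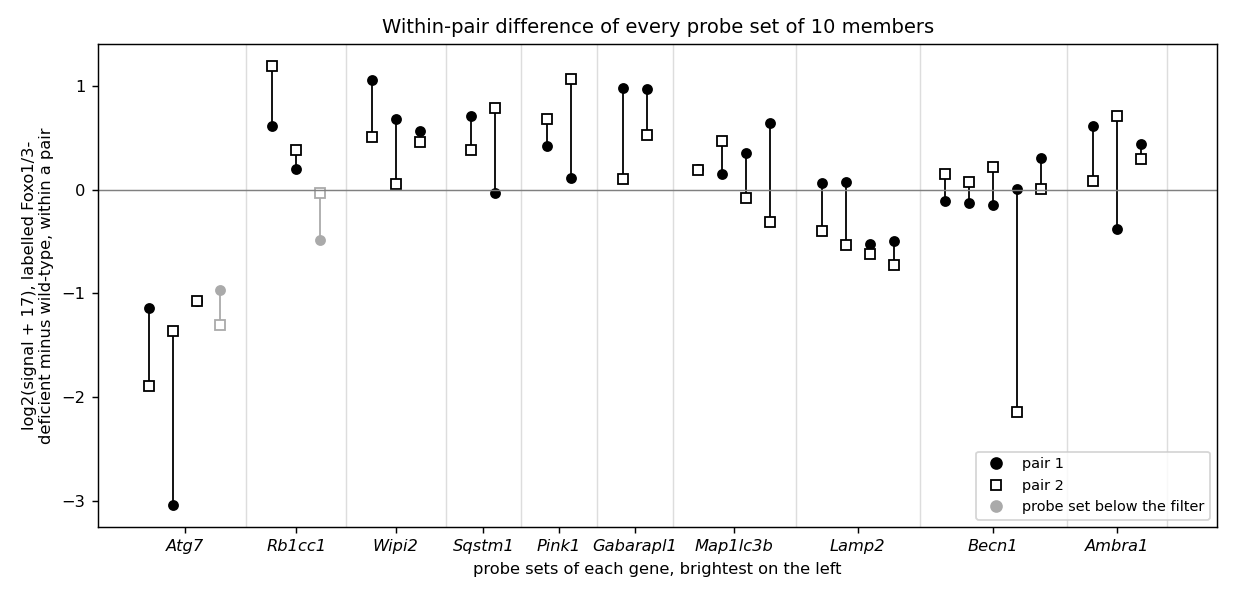
Within-pair log2 difference for every probe set of 10 members, brightest on the left, in pair 1 (filled circles) and pair 2 (open squares), with grey for probe sets under the filter. All 4 Atg7 probe sets lie below 0 in both pairs, whereas those of Becn1 lie on both sides.

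The other conjugation genes did not pass. ATG5, ATG12 and ATG16L1 form the complex that places LC3 on the membrane, and their genes differed by 0.02 ± 0.26, 0.04 ± 0.22 and -0.05 ± 0.23 (SE). Atg12 read 1314 and 1429 wild-type against 1326 and 1497 labelled-deficient. Atg3 and Atg10, the E2-like enzymes that act after ATG7, stood at 0.07 ± 0.23 and 0.04 ± 0.35. The 95% interval of Atg3 ran from -0.45 to 0.60, that of Atg12 from -0.47 to 0.55, and neither reaches the difference of Atg7. The ATG4 proteases trim the ATG8 proteins. Atg4b read 484 and 704 against 662 and 962, a ratio of 1.37 in each pair, at a log2 difference of 0.44 ± 0.30 (limma adjusted p = 0.674). Its second probe set read 285 and 541 against 270 and 535 and did not show that ratio. Atg4a and Atg4d stood at -0.16 ± 0.22 and -0.19 ± 0.27, and the 2 probe sets of Atg4c stayed under 63 on every array.

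Of the ULK complex, the scaffold gene Rb1cc1, which encodes FIP200, was higher on the labelled-deficient arrays of both pairs. Rb1cc1 read 1019 and 468 on wild-type arrays, compared with 1562 and 1090 on labelled-deficient arrays. The groups did not overlap, but the wild-type arrays differed from each other by more than the lower labelled-deficient array from the higher wild-type one. The log2 difference was 0.90 ± 0.38 (SE), which missed the threshold without the block (limma adjusted p = 0.374) and passed with it (0.00267). Without wild-type replicate 1 it was 1.45 and passed (0.0252), and without wild-type replicate 2 it was 0.35 (0.796). A second probe set read 757 and 774 against 871 and 1015, at 0.29 ± 0.25, a smaller difference than that of the first. The third, under the filter, read 62.5 and 30.8 against 39.8 and 29.6, which was lower in both pairs.

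The kinase genes themselves were level between labels. Ulk1 read 862 and 555 against 812 and 603, and Ulk2 836 and 668 against 834 and 689, with differences of 0.02 ± 0.30 and 0.02 ± 0.26 (SE). Their 95% intervals ran from -0.69 to 0.72 and from -0.58 to 0.61. Both genes were lower in pair 2 than in pair 1 under either label. Atg101, a small partner of ATG13, read 385 and 455 against 457 and 399. Atg13 differed in opposite directions, at 907 against 603 in pair 1 and 569 against 749 in pair 2.

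Of the 6 genes of the class III PI3 kinase complex 0 passed in either fit of limma (0 also at an unadjusted p under 0.05). Becn1, the core scaffold Beclin 1, read 5492 and 4956 on wild-type arrays against 5084 and 5505 on labelled-deficient ones. Its difference was 0.02 ± 0.18 with a 95% interval from -0.40 to 0.44. Its dim probe set, at 211 wild-type and 34.5 labelled-deficient in pair 2, did not follow the brighter ones. Pik3c3, the catalytic subunit VPS34, read 1030 and 1186 against 1532 and 1247, at 0.32 ± 0.23. Atg14, which sends the complex to the forming autophagosome, read 420 and 384 against 481 and 679, at 0.49 ± 0.28 (limma adjusted p = 0.577). Ambra1, a positive regulator, read 563 and 642 against 871 and 683, at 0.35 ± 0.26. All 3 had both labelled-deficient arrays above both wild-type arrays, as did 2422 of all 12111 genes. In either direction the groups did not overlap for 50% of the 6, beside 41.1% of all genes. Most of the gap lay in pair 1 for Pik3c3 and Ambra1 and in pair 2 for Atg14. Pik3r4 and Uvrag, which steadies Beclin 1 on late endosomes, were slightly lower, at -0.15 ± 0.22 and -0.13 ± 0.23.

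Wipi2 was the member that stood highest among genes of membrane supply. Its protein reads the lipid made by VPS34 and recruits the ATG16L1 complex. Wipi2 read 591 and 621 wild-type against 1245 and 892 labelled-deficient. The wild-type arrays were close together and both labelled-deficient arrays lay above them. The log2 difference was 0.78 ± 0.26 (SE), at a limma adjusted p of 0.219 without the block and 0.0109 with it. Both other Wipi2 probe sets were higher too, at 161 and 166 against 269 and 173, and at 116 and 84.4 against 179 and 122.

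The other membrane genes did not pass. Atg2b, a lipid transfer protein, read 417 and 638 against 546 and 793, at 0.34 ± 0.32. Its paralogue Atg2a read 303 and 148 against 283 and 131, so that pair mattered more than label. Atg9a, the scramblase of the seed vesicles, read 358 and 225 against 424 and 265, a ratio of 1.18 in each pair. Vmp1, a scramblase of the endoplasmic reticulum, read 3824 and 6368 against 4041 and 4487, and Wipi1 stood at 0.12 ± 0.30.

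**Figure D3:**
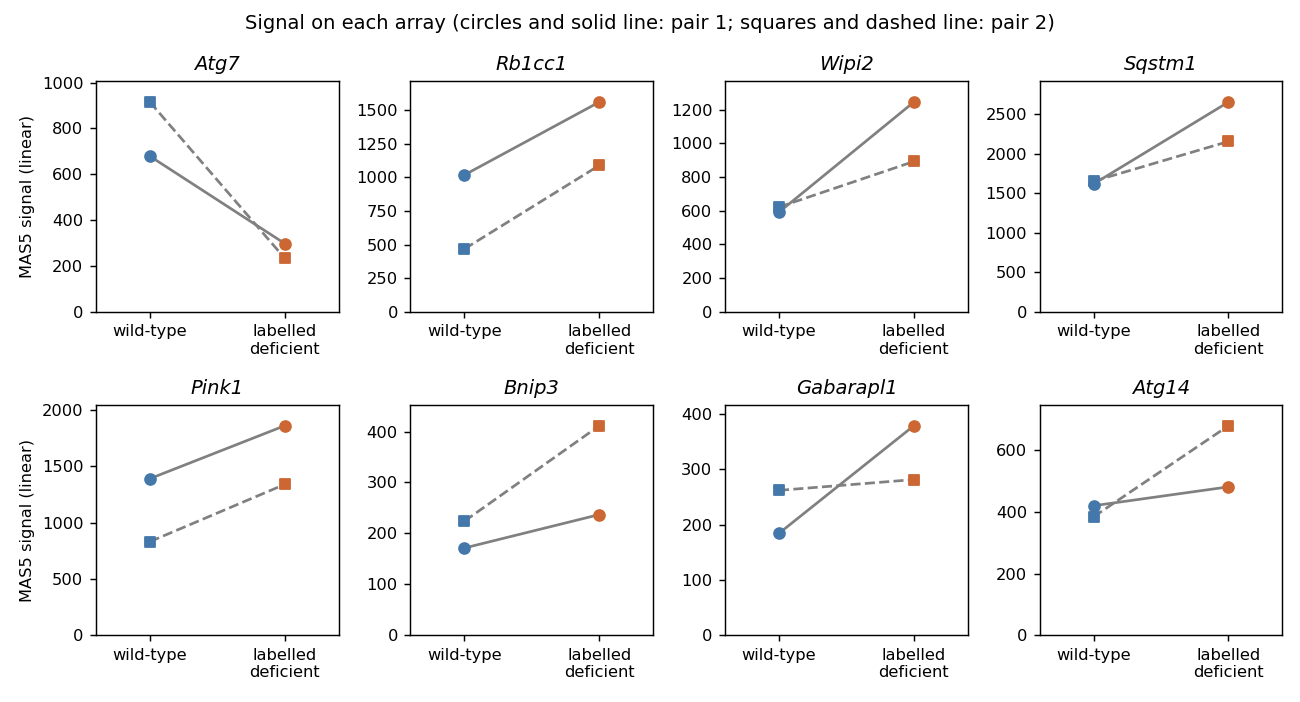
MAS5 signal on each array for 8 members, wild-type on the left and labelled-deficient on the right, with lines joining arrays of pair 1 (circles, solid) and pair 2 (squares, dashed). Atg7 falls in both pairs, and the other 7 are higher on the labelled-deficient array of both pairs by differing amounts.

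The ATG8 family held no member past the threshold in either fit of limma, and 0 of 5 passed at an unadjusted p under 0.05. Map1lc3b, the LC3 gene most used as an autophagy marker, read 6251 and 7089 on wild-type arrays, compared with 7184 and 8054 on labelled-deficient arrays. That was higher by 1.15-fold in pair 1 and 1.14-fold in pair 2, at 0.19 ± 0.18 (SE; limma adjusted p = 0.799). Its 95% interval, from -0.23 to 0.61, does not reach 2-fold. Of the 4 Map1lc3b probe sets, the second in brightness was also higher in both pairs, at 5511 and 3444 against 6128 and 4763. The third read 2538 and 3392 against 3240 and 3203, and the dimmest 87.8 and 65.8 against 147 and 49.6, both lower in pair 2. Gabarapl1, a Foxo target in other tissues, read 185 and 262 against 379 and 282, a ratio of 2.05 in pair 1 and 1.07 in pair 2. Its second probe set read 41.7 and 115 against 97.7 and 173. Map1lc3a went the other way, at 640 and 648 against 564 and 457 (-0.33 ± 0.25). Gabarap and Gabarapl2 stood at -0.16 ± 0.24 and 0.04 ± 0.22. The 5 genes thus lay on both sides of 0, from -0.33 to 0.54.

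Of the cargo receptors, Sqstm1, which encodes p62, was higher on both labelled-deficient arrays. It read 1618 and 1652 on wild-type arrays against 2655 and 2156 on labelled-deficient ones. The wild-type values nearly coincided, and the groups did not overlap. The log2 difference was 0.54 ± 0.22 (SE), with a limma adjusted p of 0.326, or 0.0317 with the block. When every probe set was tested with the block it missed the threshold (0.0796). Its dim second probe set read 71.2 and 59.1 against 69.2 and 114. Nbr1, a relative of p62, read 4236 and 4702 against 4122 and 5214, at 0.05 ± 0.20.

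Of the mitophagy genes read, Pink1 and Bnip3 were higher on the labelled-deficient array of both pairs and Fundc1 was not. PINK1 is the kinase that flags damaged mitochondria for Parkin. Pink1 read 1391 and 832 wild-type against 1861 and 1340 labelled-deficient. The groups overlapped, since the lower labelled-deficient array lay under the higher wild-type one, while the order held within each pair. The difference was 0.55 ± 0.31 (SE), with a limma adjusted p of 0.568, or 0.0420 with the block and 0.0944 when every probe set was tested with it. A second probe set read 1589 and 509 against 1715 and 1081. Bnip3, a receptor induced by low oxygen, read 172 and 224 against 237 and 411, at 0.63 ± 0.35 (limma adjusted p = 0.559, 0.189 with the block). Fundc1, another receptor of the outer membrane, read 1611 and 1681 against 1829 and 1418, at -0.03 ± 0.23.

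The 3 genes of lysosomal control all lay below 0 without passing in either fit. TFEB and TFE3 are the transcription factors that switch on lysosome and autophagy genes. Tfeb read 402 and 254 on wild-type arrays, compared with 222 and 246 on labelled-deficient arrays, at -0.43 ± 0.32 (SE; limma adjusted p = 0.715), with nearly all of the gap in pair 1. Tfe3 read 791 and 571 against 641 and 357, at -0.47 ± 0.34 (limma adjusted p = 0.697), lower in both pairs. Lamp2, a lysosomal membrane protein, read 4522 and 7130 against 4725 and 5396, at -0.17 ± 0.25. Its 4 probe sets all had a fitted difference below 0, of which the dimmest did not overlap between groups (426 and 523 against 298 and 309).

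**Figure D4:**
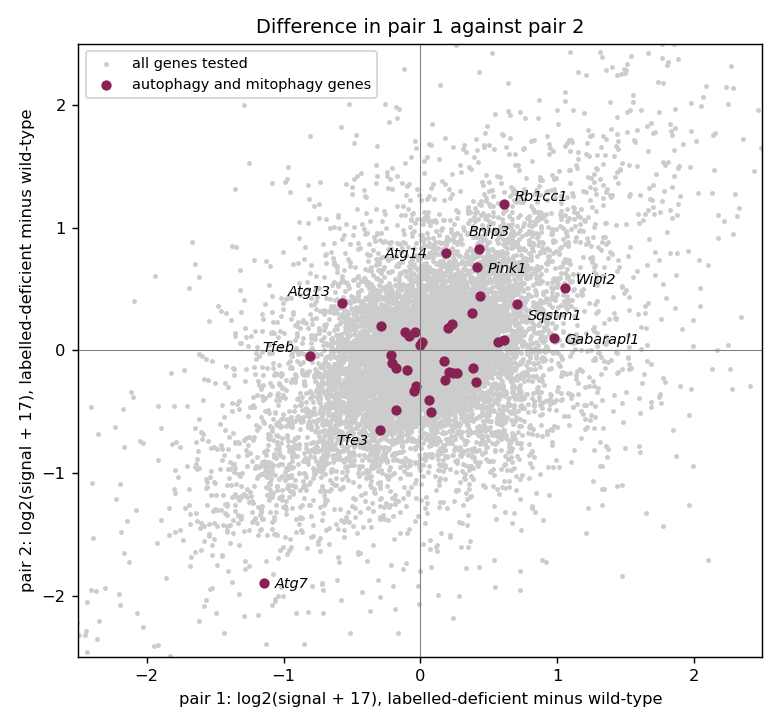
Log2 difference between the labels within pair 1 (horizontal) and pair 2 (vertical) for the 39 members (dark) and all 12111 genes (grey), with axes cut at 2.5 log2 units, which leaves out 132 genes. Atg7 is low in both pairs and Rb1cc1 and Wipi2 high in both, while most members crowd around 0.

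Some members also differed between the pairs. In a limma fit with genotype and pair as terms, added after the data had been seen, 3 of 39 members were lower in pair 2, or 7.69%, and 0 were higher, where 4.23% and 3.34% of all genes were. The 3 were Rb1cc1 (-0.80, adjusted p = 0.0140), Atg2a (-0.99, 0.0475) and Pink1 (-0.60, 0.0378). Their label differences were 0.90, -0.13 and 0.55, so the pair difference was clearly the larger in Atg2a alone of the 3. In Rb1cc1 and Pink1 the pair adds to the spread within each label, and in both the call appears when the pair is a block. The labels do not say what separates the pairs.

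Promoter sequence was set beside 4 of the 5 members that passed in either fit, Atg7, Wipi2, Sqstm1 and Pink1, since Foxo factors and TFEB bind known short motifs. RefSeq's GRCm38.p6 promoter table matched 35 of the 42 members with 43 start sites, and the 250 bases before each start were searched on both strands. Rb1cc1, the other member that passed, is among the 7 members with no window here. The Foxo element GTAAACA occurred in 0 of the 43 windows and in 3.17% of 32851 windows over all genes. The E-box CACGTG, bound by TFEB and TFE3 and by other factors, occurred in 4 of the 43 windows, or 9.30%, and in 6.02% of all. The 4 genes with it were Atg7, Bnip3, Atg5 and Atg3, of which Atg3 had 2 matches. A match is only a run of letters, and the members' windows were richer in G and C (a median of 59.2% against 52.4%). The windows of Atg7, Wipi2, Sqstm1 and Pink1 are shown 5′ to 3′ on the gene's strand, ending at the base before the start, with the E-box in capitals. They lie at chr6:114670846-114671095 (plus strand), chr5:142629334-142629583 (plus), chr11:50210821-50211070 (minus) and chr4:138326297-138326546 (minus).
Atg7: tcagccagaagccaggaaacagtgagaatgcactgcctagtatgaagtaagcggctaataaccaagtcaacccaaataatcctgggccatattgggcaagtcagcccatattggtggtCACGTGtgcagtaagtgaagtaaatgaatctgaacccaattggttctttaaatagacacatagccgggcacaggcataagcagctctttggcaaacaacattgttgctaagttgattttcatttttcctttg
Wipi2: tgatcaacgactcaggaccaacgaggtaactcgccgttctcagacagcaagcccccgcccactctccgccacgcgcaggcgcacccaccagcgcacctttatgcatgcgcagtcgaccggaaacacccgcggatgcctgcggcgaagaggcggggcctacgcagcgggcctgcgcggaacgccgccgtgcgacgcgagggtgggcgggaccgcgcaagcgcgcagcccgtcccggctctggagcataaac
Sqstm1: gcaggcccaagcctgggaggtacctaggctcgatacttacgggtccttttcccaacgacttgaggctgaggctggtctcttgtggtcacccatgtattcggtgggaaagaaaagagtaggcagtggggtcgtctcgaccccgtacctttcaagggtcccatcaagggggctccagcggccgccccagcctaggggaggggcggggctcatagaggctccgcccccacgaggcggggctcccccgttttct
Pink1: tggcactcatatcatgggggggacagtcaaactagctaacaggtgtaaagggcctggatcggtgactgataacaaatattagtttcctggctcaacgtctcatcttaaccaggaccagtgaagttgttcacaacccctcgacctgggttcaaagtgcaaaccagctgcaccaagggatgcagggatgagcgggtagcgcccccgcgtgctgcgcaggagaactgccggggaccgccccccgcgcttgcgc
Of these 4 windows only that of Atg7 held the E-box, starting 132 bases before the start site.

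The rest of the pathway was read from 4 lists, whose counts stand beside 2.60% of all genes called in either direction, or 12.2% with the pair as a block. Among 24 other autophagy genes tested 1 rose and 0 fell (limma), and the blocked fit called 5 higher and 1 lower. The one that rose was Dapk1, a death-associated kinase that acts on Beclin 1, from 116 and 109 on the wild-type to 539 and 513 on the labelled-deficient arrays. That was 4.20-fold higher, at 2.07 ± 0.28 (SE; adjusted p = 0.0138), and the call was lost without the filter and without labelled-deficient replicate 1, while 2 genes of the list passed without wild-type replicate 1. The 5 others that passed with the block, named after their values were seen, were Wdfy3 (156 to 423 on average), Tecpr1 (2280 to 4193), Wdr45 (813 to 1266) and Stx17 (495 to 829) upward and Irgm1 (3398 to 2154) downward. The groups overlapped for Stx17, at 379 and 610 wild-type against 520 and 1138. Its pair difference of 0.88 was larger than its label difference of 0.66. WDFY3 brings aggregates and TECPR1 and the SNARE protein STX17 serve the step of fusion with the lysosome. Wdr45 encodes a relative of the WIPI proteins, and Irgm1 an interferon-inducible GTPase.

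Among 11 other mitophagy genes tested, 0 passed in either fit of limma and 0 at an unadjusted p under 0.05. The largest differences were those of Bcl2l13 at 0.37 ± 0.27 and Vdac1 at -0.30 ± 0.20 (SE). Among 29 lysosome genes tested 0 passed (1 without wild-type replicate 1), while 2 were higher and 3 lower both at an unadjusted p under 0.05 and with the block. The largest was Ctsl, which encodes cathepsin L, at 639 and 308 on wild-type arrays against 1348 and 1317 on labelled-deficient ones (1.55 ± 0.35, limma adjusted p = 0.0694, 4.05e-05 with the block). Ctsd, the gene of the aspartic protease cathepsin D, went the other way, at 5612 and 5651 against 3651 and 2844 (-0.80 ± 0.20, limma adjusted p = 0.101, 0.00125 with the block). The others past the threshold with the block, named after their values were seen, were Ctsa, at 4453 and 4344 against 2548 and 2570, Atp6v1a, at 2937 and 2784 against 1816 and 1826, and Atp6v1d, at 5609 and 6905 against 9502 and 9307. The last 2 encode subunits of the pump that acidifies the lysosome, and they moved in opposite directions. Macrophages are rich in cathepsins, and the summed macrophage markers were higher on the labelled-deficient arrays, as given above. Their part in the cathepsin values was not tested.

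Among 22 genes of mTORC1 and AMPK, the nutrient and energy sensors that hold back or start ULK1, 1 rose and 0 fell (limma), and the blocked fit called 3 higher and 1 lower. Sesn1, a stress-induced inhibitor of mTORC1, was the one that rose, from 2920 and 1923 to 9756 and 8823 (1.96 ± 0.24 SE, adjusted p = 0.00969); 0 passed without the intensity trend and 2 without wild-type replicate 1. With the block, and named after their values were seen, Flcn rose too, at 1585 and 2176 against 2637 and 3489, as did Rictor, at 752 and 1112 against 1127 and 1819. Ddit4, an inhibitor of mTORC1 induced by stress and low oxygen, read 702 and 643 in pair 1 and 7340 and 2122 in pair 2, wild-type first. It fell with the block (adjusted p = 0.0117), but its pair difference was far larger than its label difference, and nearly all of its label difference lay in pair 2. The medians of the 4 lists were 0.06, -0.10, -0.01 and 0.13 in the order given.

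**Figure D5:**
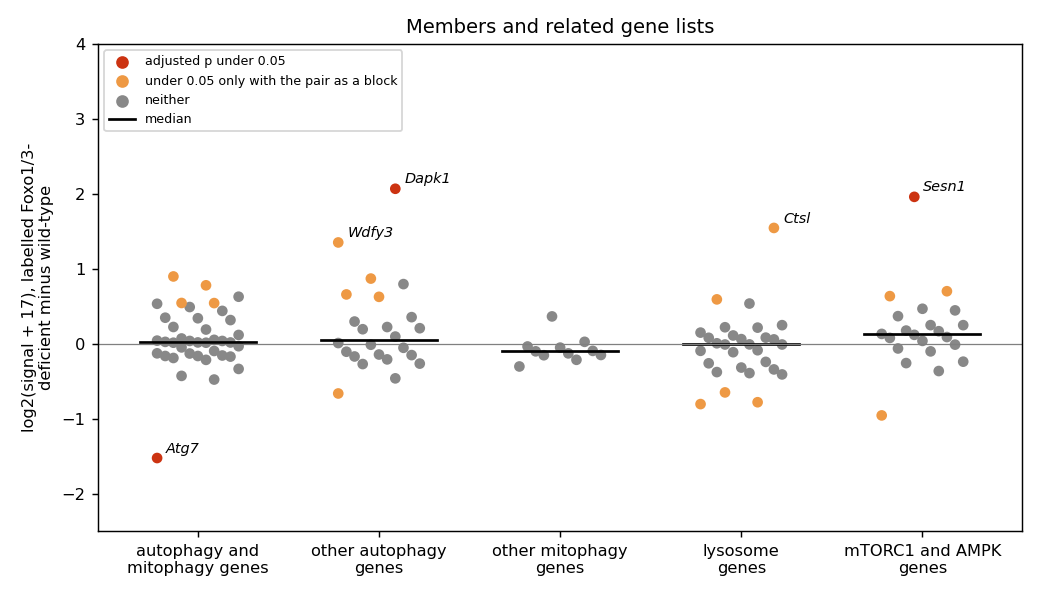
Fitted log2 difference of each gene tested, for the members and the 4 related lists, with black lines for medians. Red marks an adjusted p under 0.05 (Atg7, Dapk1 and Sesn1), and orange marks genes that pass only with the pair as a block.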

How the data were processed

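RNA from 4 samples was labelled with biotin and hybridised, 2 arrays per genotype in 2 numbered pairs. Per the submitters' processing notes the deposited values were made with MAS5, as intensity per probe set on a linear scale; the notes give no version of it. Of 45101 probe sets, 64 were controls, 34945 had 1 gene symbol, 932 several and 9160 none, per a platform annotation that can be old; names followed a RefSeq table of GRCm38.p6, which changed 0 symbols.

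Where a gene had several probe sets, the brightest on average over the 4 arrays stood for it. Signals were tested as log2(signal + 17), 17 being the 25th percentile of all values. Fitted fold changes are on that scale and understate dim genes, while ratios and folds within a pair are of the signals themselves. Probe sets under the 40th percentile of mean log2 signal (about 40.5) were left out, which left 12111 genes. The 2 labels were set against each other in limma 3.58.1 (R 4.3.3; lmFit, then eBayes with its intensity trend). Tests were two-sided, and p-values were adjusted over all genes by Benjamini and Hochberg. The fit was tested on simulated data.

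The titles call the numbers pairs. Arrays of one pair deviated together from their group means (Pearson r of 0.368 across genes, 2 pairs); genes are not independent replicates. The main fit left the pair out, and the fit with it as a block is printed where it changed a call. Named in full were members past the threshold in either fit and the 12 with the largest differences; of each related list, genes past the threshold or else the 2 with the largest. The members and lists were chosen with earlier results of these data known. Precision is limited by how few arrays there are, and detection calls were not used here.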

Additional observations from a re-analysis of the deposited data

How the results depend on the processing

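Of 13 other settings and 2 more added after seeing the data (every probe set tested, without and with the block), Atg7 kept its direction in all 15 and passed the threshold in 8. With the replicate block 4 members were higher, 6 other autophagy, 5 lysosome and 4 mTORC1 and AMPK genes were called. Without the filter 0 members were lower and 0 other autophagy genes were called; on the first-listed probe set 0 members were lower; without the intensity trend 0 members were lower and 0 mTORC1 and AMPK genes were called. Leaving out 1 array at a time (the lone array of a group then being assumed to vary like the other group), members higher ran from 0 to 1, members lower from 0 to 1, other autophagy genes from 0 to 2, lysosome genes from 0 to 1 and mTORC1 and AMPK genes from 1 to 2, while the members' median ran from -0.0158 to 0.142. Over all genes, 149 were higher and 166 lower, against 671 and 806 with the block, 46 and 45 without the filter, 58 and 55 without the intensity trend, 83 and 109 on the first-listed probe set, and, leaving out an array, 270 and 259 (wild-type replicate 1), 70 and 82 (labelled-deficient replicate 1) and 74 and 104 (labelled-deficient replicate 2). The cause of these shifts was not tested. The block changed no other call among the members. Signals near the filter carry the least precision.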
